A study of Mus musculus with 9 samples.

Results

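MHC class II antigen presentation was represented by 7 genes, H2-Aa, H2-Ab1, H2-Eb1, Cd74, Ciita, H2-DMa, and H2-DMb1, which were taken by gene symbol from the 22609 genes listed for 9 RNA-seq libraries of 4T1 tumors. All 7 passed the filter on low counts and were among the 13366 genes tested. 4T1 is a mouse mammary carcinoma cell line used as a model of triple-negative breast cancer (TNBC), and here it was injected orthotopically into BALB/c hosts, which have an intact immune system. Each tumor therefore held host cells besides the injected line, and the host's age and sex are not among the labels.

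The LFD group was fed a diet with 10% of its calories from fat and given vehicle (0.3% hydroxypropyl cellulose). The HFD group was fed a diet with 60% of its calories from fat and given the same vehicle. The HFD + EC359 group was fed the 60% fat diet and given EC359, an inhibitor of the leukemia inhibitory factor receptor (LIFR), at 5 mg/kg by intraperitoneal injection on 5 days per week. In all 3 groups the diet began 6 weeks before the 4T1 cells were injected and was continued afterwards. Each group had 3 libraries, which the series describes as tumors. Nothing in the labels ties a library to a separate animal, so p-values measure the spread between these libraries, which may be technical. HFD compared to LFD asks what the diet changed, and HFD + EC359 compared to HFD asks what the inhibitor changed under that diet; both use the same HFD libraries.

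MHC class II molecules present peptides from endosomes to CD4 T cells. They are made mainly by dendritic cells, macrophages, and B cells, and can be induced in other cells by interferon-γ. An α and a β chain pair in the endoplasmic reticulum (H2-Aa with H2-Ab1 in the I-A molecule, an Eα chain with H2-Eb1 in I-E) and bind the invariant chain, the product of Cd74, which blocks the groove and directs the complex to endosomes. There the invariant chain is degraded, and the H2-DM heterodimer, made of H2-DMa and H2-DMb chains, exchanges its last fragment for a peptide. Ciita encodes the class II transactivator, a coactivator that binds no DNA itself and is recruited to class II promoters by RFX, CREB1, and NF-Y on the elements known as the X and Y boxes.

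The stretches of 150 bases before the annotated starts of 3 members are shown because the members shared 1 direction in the comparisons below and these boxes are the known shared elements of their promoters. They were taken from RefSeq (GRCm38.p6), which held windows for 4 of the 7 members, with H2-Ab1, Cd74, and Ciita missing. Capitals mark letters that matched AGCAAC (the X box core), CTGATTGG (a Y box), or ATTGG (the Y box core, contained in the Y box) on the gene's strand. Both strands were searched.
H2-Eb1, chr17:34305717-34305866, plus strand: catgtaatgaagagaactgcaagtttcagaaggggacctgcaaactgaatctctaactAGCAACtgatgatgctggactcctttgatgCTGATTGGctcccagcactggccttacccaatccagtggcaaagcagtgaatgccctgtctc
H2-Aa, chr17:34287824-34287973, minus strand: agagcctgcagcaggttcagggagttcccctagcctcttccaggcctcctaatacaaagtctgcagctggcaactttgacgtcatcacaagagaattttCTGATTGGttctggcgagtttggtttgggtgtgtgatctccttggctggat
H2-DMb1, chr17:34153041-34153190, plus strand: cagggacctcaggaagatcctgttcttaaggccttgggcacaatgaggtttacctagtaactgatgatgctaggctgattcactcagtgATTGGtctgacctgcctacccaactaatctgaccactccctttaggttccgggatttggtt

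Counting back from the annotated start, H2-Eb1 held the X box core at -92 to -87 and the Y box at -62 to -55. It also held a Y box core on the opposite strand, at -35 to -31, which is not in capitals. H2-Aa held the Y box at -51 to -44 with no match to AGCAAC in the 250 bases searched. Of the exact letters searched, H2-DMb1 held only the Y box core, at -61 to -57. The search left out boxes that differ by 1 letter. Before these Y box letters, the printed sequences hold agtaac (H2-DMb1) and ggcaac (H2-Aa), each 1 letter from AGCAAC. The share of all windows that hold a match this loose was not counted, so these letters are not taken as X boxes. H2-DMa had a Y box core at -198 to -194 in 1 of its windows and no X box core. The Y box core is short and was found in 33.8% of the 32851 RefSeq windows searched, the X box core in 12.2%, the full Y box in 3.83%, and both cores in 4.31%. These matches are letters in the reference strain and not measured sites of binding.

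In the mm9 annotation, 5 of the members lie in the MHC on chromosome 17. H2-DMa (34272616 to 34275480, plus strand), H2-DMb1 (34290136 to 34297174, plus strand), H2-Ab1 (34400172 to 34406363, plus strand), H2-Aa (34419696 to 34424716, minus strand), and H2-Eb1 (34442812 to 34453619, plus strand) were counted over 4 to 6 exons. Ciita lies on chromosome 16 (10488372 to 10527657, plus strand, 19 exons).

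Cd74 lies on chromosome 18 (60963503 to 60972306, plus strand, 9 exons) and overlaps 1 other annotated gene on that strand. Reads shared between overlapping genes or between several alignments had been split into fractions, which touched 2 of the 63 member values. The class II chains are highly polymorphic, and BALB/c carries another MHC haplotype than the C57BL/6 reference, so levels of different chains also depend on how well their reads align to the reference.

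Library totals were 5085357 to 9751201 counts, lowest in the LFD group, and a count of 0 allows up to 3 counts, or 0.308 to 0.59 CPM (counts relative to the scaled library total), for counting error alone. Rounded counts of the members ran from 35 to 6550 per library. Libraries of the same group differed by little more than sampling noise (mean chi-square per gene 1.36 to 1.57, against 1 for sampling noise alone), except for LFD replicate 1 (2.46 and 3.00 against the other LFD libraries). The diet calls of all 7 members were the same without this library. 4T1 epithelium was represented by Krt8 and Krt18 (mean 483 and 361 CPM), while Krt19 and Krt7, also on its marker list, were too low to be tested. The summed level of the 7 genes of this list was 1120 to 1140 CPM in LFD, 705.9 to 714.0 CPM in HFD, and 765.3 to 794.7 CPM in HFD + EC359. In HFD compared to LFD, 5 of its 5 tested genes were called lower (25.8% of all tested genes). In HFD + EC359 compared to HFD, 4 of 5 were called higher (12.7% of all tested genes). The summed level of 9 epidermis markers was 1346 to 1527 CPM in LFD, 174.7 to 186.9 CPM in HFD, and 655.4 to 663.6 CPM in HFD + EC359. The part of these differences in the class II values was not tested.

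All 7 class II genes were higher in HFD + EC359 than in HFD, by 1.38-fold (H2-DMa) to 2.06-fold (H2-Aa), and Ciita, the transactivator, was 1.85-fold higher. HFD compared to LFD gave smaller differences, with 5 genes higher by 1.19-fold (H2-Eb1) to 1.44-fold (H2-Aa and H2-DMb1), while H2-Ab1 and Ciita did not pass the test. Compared to LFD, the HFD + EC359 tumors held 1.86-fold (H2-Ab1) to 2.98-fold (H2-Aa) more of each member. The summed level of the 7 genes was 548.0 to 579.0 CPM in LFD, 676.0 to 686.3 CPM in HFD, and 1167 to 1196 CPM in HFD + EC359. In bulk tumor RNA, fewer cells of a type and less RNA per cell cannot be told apart.

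**Figure D1:**
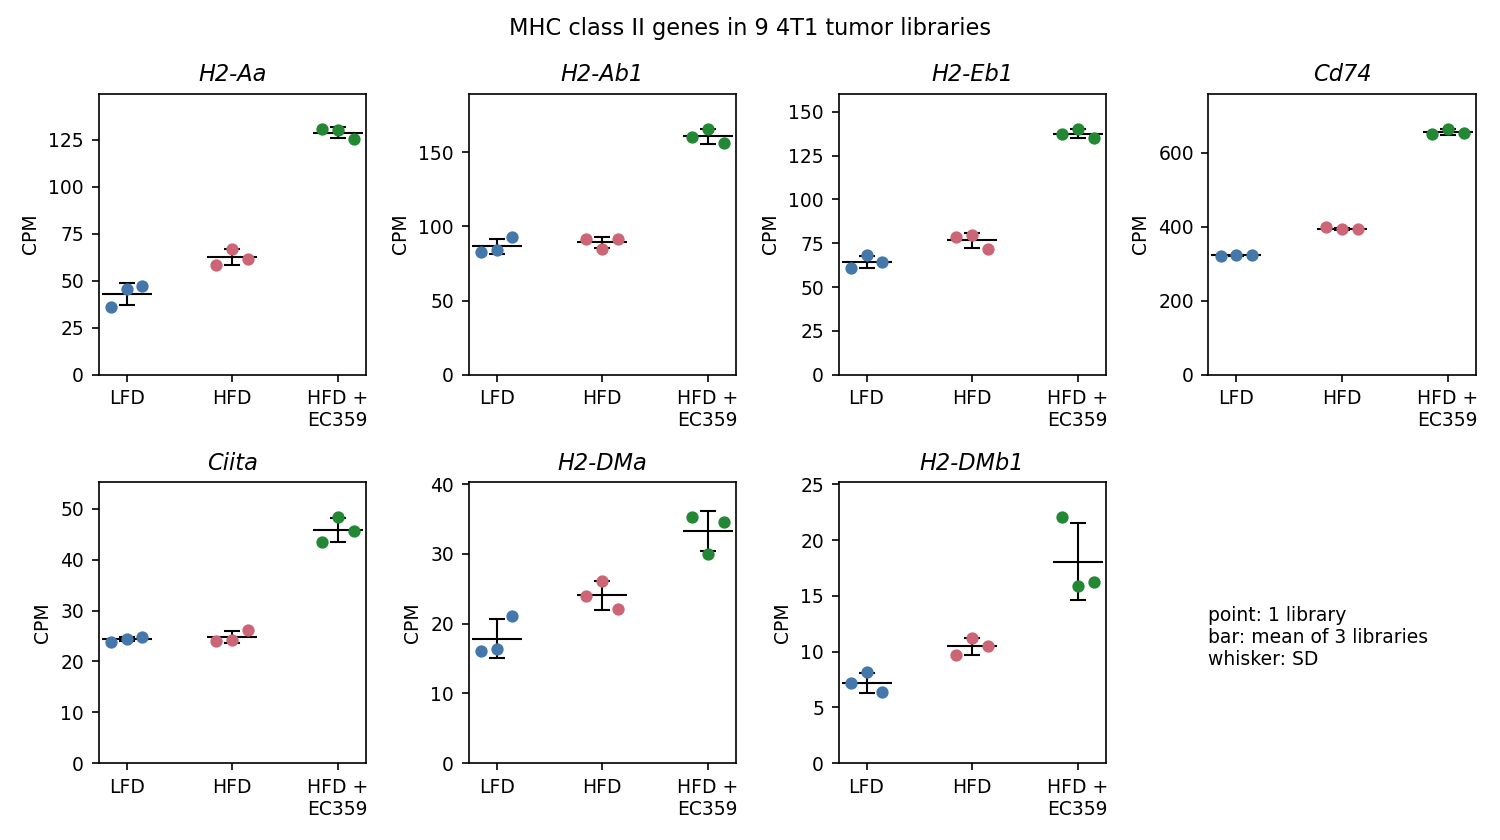
Levels of the 7 class II genes in each library. The y axis of each panel is CPM from 0 and the x axis the group, with points for libraries and bars and whiskers for the mean and SD (n = 3). In every panel the 3 HFD + EC359 libraries lie above all others, and the LFD and HFD libraries overlap for H2-Ab1 and Ciita.

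H2-Aa, the α chain of I-A, was at 36.2, 45.3, and 47.2 CPM in the LFD libraries, 58.4, 67.0, and 61.7 CPM in the HFD libraries, and 130.8, 130.0, and 125.4 CPM in the HFD + EC359 libraries. The 3 groups did not overlap. H2-Aa was 2.06-fold higher in HFD + EC359 than in HFD (95% confidence interval (CI) 1.90 to 2.25, edgeR adjusted p = 1.63e-15) and 1.44-fold higher in HFD than in LFD (CI 1.29 to 1.61, edgeR adjusted p = 7.45e-07). It was the only member past the stricter threshold of the study's methods (more than 2-fold, with adjusted p below 0.01) in HFD + EC359 compared to HFD. H2-Aa passed it narrowly, with a log2 fold change of 1.045. This fell under 2-fold with the GC and length trend removed (0.951) and without HFD replicate 1 (0.998). Without LFD replicate 1, its lowest library, the log2 fold change of HFD compared to LFD was 0.43 in place of 0.53.

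H2-Ab1, the β chain of the same molecule, was at 83.0, 83.7, and 92.6 CPM in LFD, 91.6, 84.7, and 91.2 CPM in HFD, and 160.0, 165.9, and 156.0 CPM in HFD + EC359. Its LFD and HFD libraries overlapped, and the HFD + EC359 libraries stood above both. H2-Ab1 was 1.80-fold higher in HFD + EC359 than in HFD (CI 1.68 to 1.93, edgeR adjusted p = 2.07e-15). HFD compared to LFD gave 1.03-fold (CI 0.951 to 1.12, edgeR adjusted p = 0.54). After removal of the trend with GC content and gene length in each library, this last log2 fold change was 0.27 in place of 0.04 and passed the test (edgeR adjusted p = 0.000133). H2-Ab1 has 57.5% GC, above the median of 50.8% of the tested genes.

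H2-Eb1, the β chain of I-E, was at 61.1, 68.1, and 64.3 CPM in LFD, 78.4, 79.9, and 71.7 CPM in HFD, and 137.3, 140.4, and 135.2 CPM in HFD + EC359. The 3 groups did not overlap. It was 1.79-fold higher in HFD + EC359 than in HFD (CI 1.67 to 1.93, edgeR adjusted p = 5.45e-15) and 1.19-fold higher in HFD than in LFD (CI 1.09 to 1.29, edgeR adjusted p = 0.00106).

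Cd74, which encodes the invariant chain, had the most counts of the members, at 320.6, 324.4, and 322.7 CPM in LFD, 398.3, 393.0, and 392.7 CPM in HFD, and 651.0, 665.3, and 654.1 CPM in HFD + EC359. Libraries of a group differed little, and the groups did not overlap. Cd74 was 1.66-fold higher in HFD + EC359 than in HFD (CI 1.59 to 1.74, edgeR adjusted p = 1.57e-18) and 1.22-fold higher in HFD than in LFD (CI 1.16 to 1.29, edgeR adjusted p = 2.29e-08). With the GC and length trend removed, the log2 fold change of HFD compared to LFD was 0.49 in place of 0.29.

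Ciita was at 23.9, 24.5, and 24.8 CPM in LFD, 24.1, 24.2, and 26.1 CPM in HFD, and 43.5, 48.4, and 45.6 CPM in HFD + EC359. The LFD and HFD libraries overlapped, and all 3 HFD + EC359 libraries stood above them. Ciita was 1.85-fold higher in HFD + EC359 than in HFD (CI 1.65 to 2.08, edgeR adjusted p = 2.54e-10). HFD compared to LFD gave 1.01-fold (CI 0.883 to 1.17, edgeR adjusted p = 0.871), and the sign of the log2 fold change turned (-0.02 in place of 0.02) without HFD replicate 3.

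H2-DMa, the α chain of the peptide exchange factor, was at 16.1, 16.3, and 21.1 CPM in LFD, 23.9, 26.2, and 22.1 CPM in HFD, and 35.3, 30.0, and 34.6 CPM in HFD + EC359. The groups did not overlap, although the highest LFD library lay close to the lowest HFD library. H2-DMa was 1.38-fold higher in HFD + EC359 than in HFD (CI 1.20 to 1.59, edgeR adjusted p = 0.000442), the smallest of the 7 differences, and 1.35-fold higher in HFD than in LFD (CI 1.14 to 1.59, edgeR adjusted p = 0.00303).

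H2-DMb1, a β chain of H2-DM, had the fewest counts of the members, at 7.15, 8.15, and 6.34 CPM in LFD, 9.70, 11.3, and 10.5 CPM in HFD, and 22.1, 15.9, and 16.3 CPM in HFD + EC359. The groups did not overlap, and the HFD + EC359 group had 1 library above its other two. H2-DMb1 was 1.71-fold higher in HFD + EC359 than in HFD (CI 1.42 to 2.07, edgeR adjusted p = 3.37e-05) and 1.44-fold higher in HFD than in LFD (CI 1.12 to 1.86, edgeR adjusted p = 0.0128). The latter did not pass the test without LFD replicate 3 (edgeR adjusted p = 0.0696) or without HFD replicate 2 (edgeR adjusted p = 0.0511). The deposited counts of H2-DMb1 were whole numbers, with no sign of reads split into fractions. Reads that match both H2-DMb1 and its close paralog H2-DMb2 may still be misassigned or lost, so the level of either is uncertain.

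Per kilobase of annotated transcript, the order of the mean levels was Cd74, H2-Ab1, H2-Aa, H2-Eb1, H2-DMa, H2-DMb1, and Ciita in all 3 groups. In LFD these levels ran from 228 CPM per kb for Cd74 to 4.74 CPM per kb for Ciita, and in HFD + EC359 from 464 to 8.89 CPM per kb. Only H2-Aa (40.1 CPM per kb) and H2-Eb1 (38.6 CPM per kb) in LFD had overlapping libraries among neighbors in this order. The ratio of H2-Aa to H2-Ab1, the 2 chains of I-A, was 0.487 to 0.604 in LFD, 0.712 to 0.883 in HFD, and 0.874 to 0.912 in HFD + EC359, per kb. The LFD libraries lay below all others, and the HFD and HFD + EC359 libraries overlapped. This ratio was chosen after its values were seen, and with 3 libraries against 3 a 2-sided exact permutation test cannot give a p below 0.1, which it gave for HFD compared to LFD. In that comparison the log2 fold changes were 0.53 for H2-Aa and 0.04 for H2-Ab1. With the GC and length trend removed they were 0.56 and 0.27, a smaller difference between the chains.

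**Figure D2:**
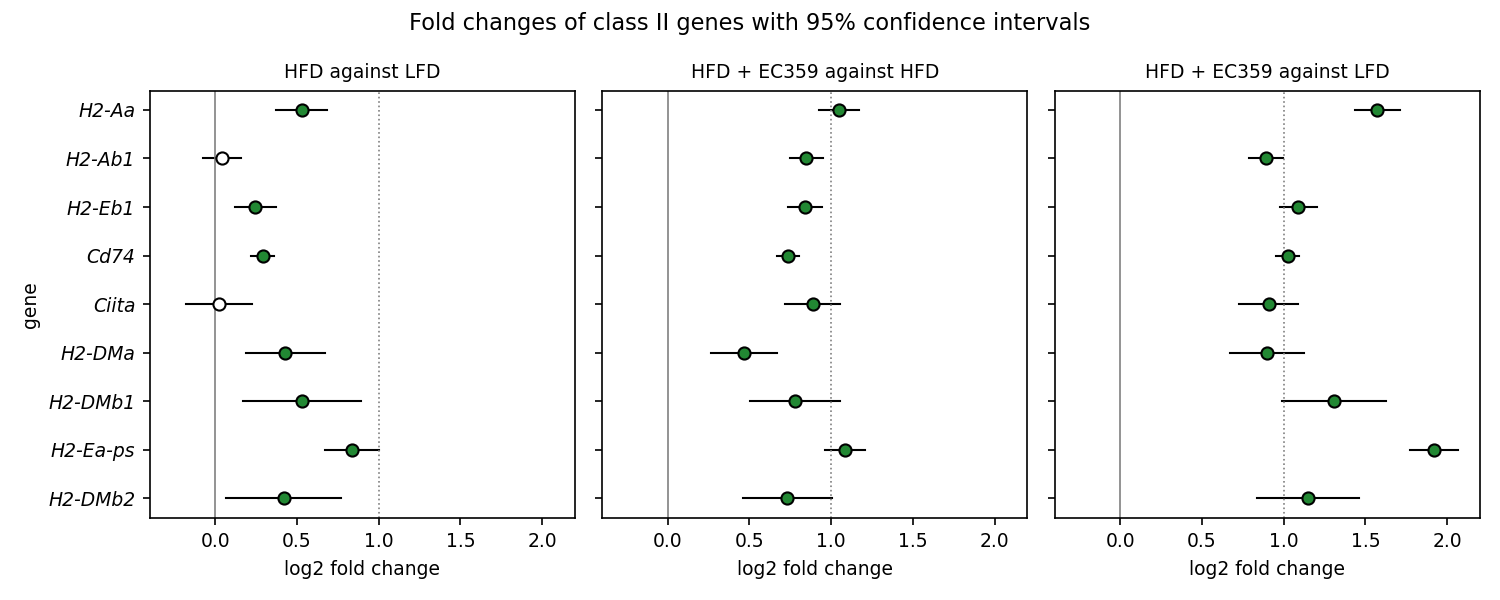
Log2 fold changes (x axis) of the 7 members and of 2 further class II chains (y axis) in the 3 comparisons, from edgeR. Points are estimates and lines 95% confidence intervals; filled points passed an adjusted p under 0.05, the dotted line is a fold change of 2, and only H2-Ab1 and Ciita in HFD compared to LFD are open.

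In HFD + EC359 compared to HFD, 7 of 7 members were called higher by the edgeR quasi-likelihood test (adjusted p below 0.05), while 12.7% of all tested genes were called higher and 13.9% lower. The HFD + EC359 libraries all lay above the HFD libraries for 7 of 7 members, as they did for 20.6% of the tested genes. The median log2 fold change was 0.84, against 0.01 over all tested genes. Past the threshold of the methods there was 1 member (H2-Aa), against 2.06% of the tested genes. The call at an adjusted p under 0.05 did not depend on any single library for any member.

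Diet gave a weaker pattern. For HFD compared to LFD, 5 of 7 members were called higher and 0 lower, while 26.0% of the tested genes were called higher and 25.8% lower. The HFD libraries lay above the LFD libraries for the same 5 members and for 28.6% of the tested genes. The median log2 fold change of the members was 0.29, against 0.01. None of the 7 passed the threshold of the methods (3.03% of the tested genes did), and their largest difference was the 1.44-fold of H2-Aa and H2-DMb1.

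In HFD + EC359 compared to LFD, where diet and treatment both differ, 7 of 7 members were called higher (29.2% of the tested genes, with 29.1% lower), and for all 7 the libraries lay above those of LFD (31.8% of the tested genes). The median log2 fold change was 1.03. H2-Aa (2.98-fold), H2-DMb1 (2.47-fold), H2-Eb1 (2.13-fold), and Cd74 (2.04-fold) passed the threshold of the methods, as did 3.66% of the tested genes. This comparison shares its libraries with the other two and is no separate evidence.

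Of 6 further class II chains, 5 were listed and 2 had enough counts to be tested. H2-Ea-ps, the Eα gene, is a pseudogene in the reference strain and is expressed in BALB/c, where its product pairs with that of H2-Eb1. It was at 26.2 to 34.2 CPM in LFD, 53.4 to 57.0 CPM in HFD, and 111.7 to 119.3 CPM in HFD + EC359. H2-Ea-ps was 1.79-fold higher in HFD than in LFD (edgeR adjusted p = 2.18e-10) and 2.12-fold higher in HFD + EC359 than in HFD (CI 1.95 to 2.31, edgeR adjusted p = 6.55e-16), with no overlap between groups.

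H2-DMb2, the second H2-DM β chain gene, was at 6.54 to 9.88 CPM in LFD, 9.94 to 11.98 CPM in HFD, and 16.8 to 22.5 CPM in HFD + EC359. It was 1.66-fold higher in HFD + EC359 than in HFD (CI 1.38 to 2.01, edgeR adjusted p = 7.44e-05). For HFD compared to LFD it was 1.34-fold higher (CI 1.05 to 1.70, edgeR adjusted p = 0.0414), a call that was lost without LFD replicate 1 (log2 fold change 0.29 in place of 0.42, edgeR adjusted p = 0.176), without LFD replicate 3, HFD replicate 1, or HFD replicate 3, and in DESeq2. H2-Oa and H2-Ob, which encode the H2-DO inhibitor of H2-DM found mainly in B cells, had at most 8 and 10 counts in a library, and H2-Eb2 at most 3; these genes were not tested.

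The transcription factors that recruit the class II transactivator moved less than the members in HFD + EC359 compared to HFD. Of 7 genes for RFX, NF-Y, and CREB1, only Nfya, an NF-Y subunit, was called (1.12-fold higher, edgeR adjusted p = 0.0471), while 12.7% of all tested genes were called higher. The call of Nfya was lost without HFD replicate 1 (log2 fold change 0.10 in place of 0.17, edgeR adjusted p = 0.341), without each of the other libraries of the comparison except HFD replicate 2, and in DESeq2. Rfx5, the large RFX subunit, had a CI of 0.903 to 1.12, and Creb1 gave 1.02-fold (CI 0.940 to 1.11). The median log2 fold change of these 7 genes was 0.01, that of all tested genes. Between HFD and LFD, 4 of the 7 were called higher in HFD (26.0% of all tested genes). Creb1 was 1.59-fold (edgeR adjusted p = 1.15e-09) and Nfya 1.32-fold (edgeR adjusted p = 1.92e-05) higher. Creb1 has 39.7% GC, and its log2 fold change was 0.23 in place of 0.67 once the GC and length trend was removed. Rfx5 (1.15-fold) and Nfyb (1.22-fold) lost their calls in DESeq2 and when single libraries were left out. For Rfx5 these were all libraries but LFD replicate 1, HFD replicate 3, and HFD + EC359 replicate 1, and for Nfyb LFD replicate 3, HFD replicate 3 (log2 fold change 0.16 in place of 0.29 without either), and any HFD + EC359 library.

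Interferon-γ induces Ciita through the kinases JAK1 and JAK2 and the transcription factor IRF1. Ifng itself had at most 4 counts in any library and was not tested. In HFD + EC359 compared to HFD, Jak2 was lower (0.873-fold, CI 0.829 to 0.919, edgeR adjusted p = 9.32e-05). Irf1, with a known site in a Ciita promoter, gave 1.03-fold (CI 0.964 to 1.09), and Jak1 1.02-fold (CI 0.971 to 1.08). Between HFD and LFD, Jak2 (0.895-fold) and Socs1 (0.746-fold), which encodes a feedback inhibitor of the pathway, were lower in HFD (edgeR adjusted p = 0.000519 and 0.00308). The call of Socs1 was lost with the GC and length trend removed (log2 fold change -0.11 in place of -0.42), and that of Jak2 was -0.41 in place of -0.16.

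Among 9 genes of endosomal processing and class II turnover, 6 were called higher and 0 lower in HFD + EC359 compared to HFD. Of all tested genes, 12.7% were called higher and 13.9% lower. The median log2 fold change of the 9 genes was 0.21. March1, a ubiquitin ligase that removes class II molecules from the surface of antigen-presenting cells, was 1.67-fold higher (edgeR adjusted p = 8.49e-05). Its level was 4.86 to 6.69 CPM in LFD, 7.59 to 10.2 CPM in HFD, and 14.3 to 15.0 CPM in HFD + EC359, without overlap. Ctss, the cathepsin that cleaves the invariant chain in antigen-presenting cells, was 1.27-fold higher (edgeR adjusted p = 3.20e-07), at 129.9 to 133.8 CPM in HFD and 161.9 to 173.2 CPM in HFD + EC359. The endosomal proteases Ctsl (1.27-fold), Lgmn (1.17-fold), and Ctsb (1.11-fold) were higher as well (edgeR adjusted p = 2.50e-10, 3.52e-06, and 0.000173).

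In HFD compared to LFD, 3 of the same 9 genes were called higher and 5 lower, while 26.0% of all tested genes were called higher and 25.8% lower. March1 (1.51-fold, edgeR adjusted p = 0.00632) and Ctss (1.16-fold, edgeR adjusted p = 0.000592) were higher, and Ctsl (0.807-fold), Lgmn (0.850-fold), March8 (0.860-fold), and Ctsd (0.915-fold) were lower (edgeR adjusted p = 1.76e-09, 1.61e-06, 0.00137, and 0.00382). After the GC and length trend was removed, March1, Ctss, and Ctsb lost their calls, Ctsl had -0.50 in place of -0.31, and the log2 fold change of Ctsd was 0.02 in place of -0.13. The call of March1 was also lost without LFD replicate 2 or HFD replicate 1. That of Ctsb (1.05-fold higher) was also lost in DESeq2, with RLE factors, and with the 6 libraries of the comparison alone. Leaving out LFD replicate 2, HFD replicate 1 or 3, or any HFD + EC359 library removed the Ctsb call as well.

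Costimulatory and coinhibitory genes of antigen-presenting cells, put in 1 list, were low. Of 5 tested, 2 were called higher in HFD + EC359 compared to HFD, as were 12.7% of all tested genes. These were the coinhibitory Pdcd1lg2, which encodes the PD-1 ligand PD-L2 (1.98-fold, edgeR adjusted p = 0.000712), and Cd40 (1.51-fold, edgeR adjusted p = 0.0434). The call of Cd40 was not followed through the alternatives. Icosl, the most abundant gene of the list, gave 1.11-fold (CI 0.908 to 1.35). Cd86, the ligand of CD28 and CTLA4, gave 1.25-fold (CI 1.03 to 1.51, edgeR adjusted p = 0.0775) in that comparison, and was 1.73-fold higher in HFD than in LFD (edgeR adjusted p = 0.000308).

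**Figure D3:**
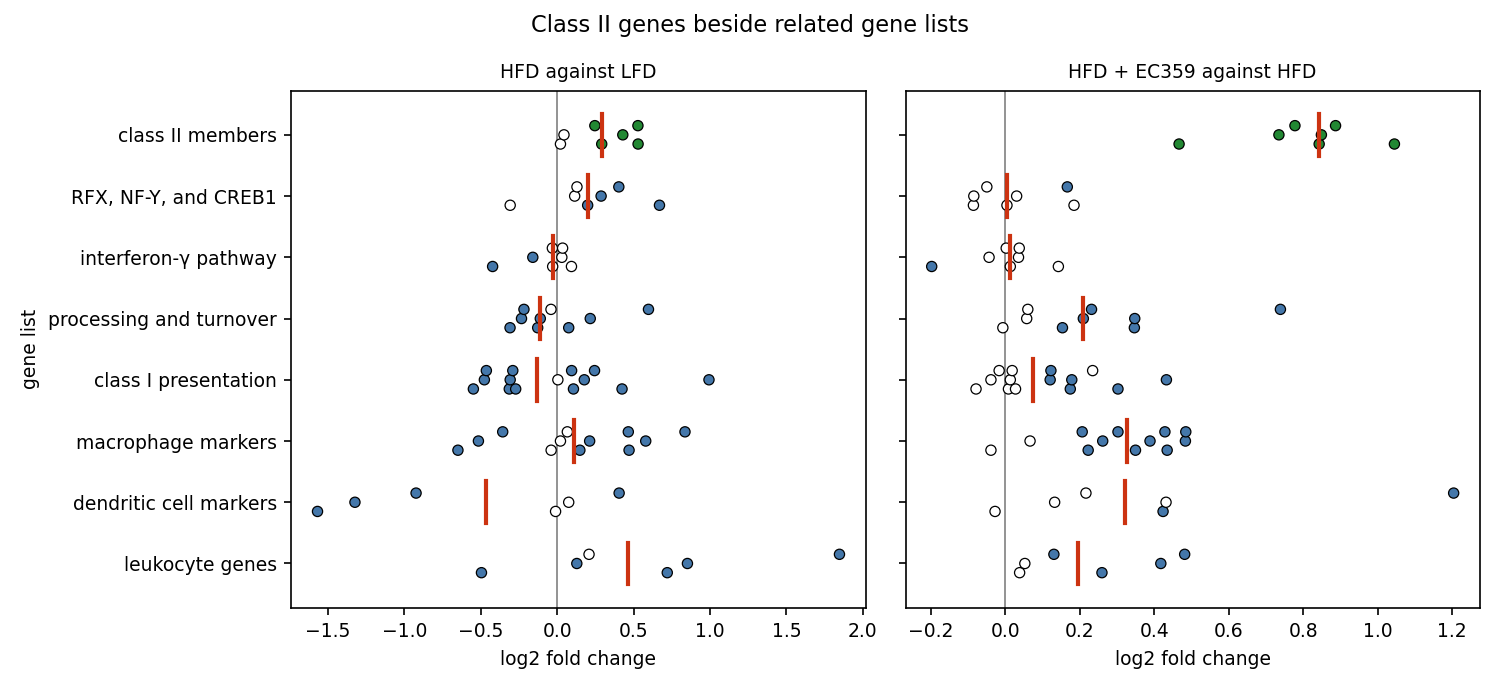
Log2 fold changes (x axis) of the tested genes of 8 lists (y axis) in HFD compared to LFD (left) and in HFD + EC359 compared to HFD (right), on different x scales. Each point is a gene, filled where its adjusted p was under 0.05, and the red lines are medians; the median of the class II members is 0.84 on the right, beside 0.33 for macrophage markers and 0.07 for class I genes.

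Genes of MHC class I presentation, which shows peptides from the cytosol to CD8 T cells, are the closest counterpart. In HFD + EC359 compared to HFD, 6 of 14 were called higher and 0 lower (12.7% and 13.9% of all tested genes). The median log2 fold change of the 14 was 0.07. B2m, the light chain of class I molecules, was 1.35-fold higher (edgeR adjusted p = 1.51e-06), and H2-D1, a class I heavy chain, 1.09-fold (edgeR adjusted p = 0.00435, and 0.0522 without HFD + EC359 replicate 1). The peptide loading factor Tapbp gave 1.01-fold (CI 0.956 to 1.07). The diet comparison had 6 of the 14 called higher and 7 lower (26.0% and 25.8% of all tested genes). There B2m was 1.99-fold higher (edgeR adjusted p = 6.34e-14), and H2-D1 0.808-fold and Tapbp 0.683-fold lower (edgeR adjusted p = 1.34e-09 and 2.25e-13). Removing the GC and length trend moved the log2 fold changes of H2-D1 from -0.31 to -0.13 and of Tapbp from -0.55 to -0.34 in this comparison, and that of B2m from 0.43 to 0.23 in HFD + EC359 compared to HFD, all of them still called.

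Markers of the cells that make class II molecules were divided by diet, and with EC359 most of the macrophage markers rose. All 12 macrophage markers were tested. In HFD + EC359 compared to HFD, 10 were called higher and 0 lower (12.7% and 13.9% of all tested genes), with a median log2 fold change of 0.33. Mrc1 (1.35-fold), Lyz2 (1.27-fold), and Csf1r (1.20-fold) had the highest levels. The summed level of the 12 markers was 2417 to 2456 CPM in LFD, 2472 to 2512 CPM in HFD, and 3064 to 3087 CPM in HFD + EC359, with no marker at 0. In HFD compared to LFD, 6 of the 12 were called higher and 3 lower (26.0% and 25.8% of all tested genes). Lyz2 (1.78-fold) and Csf1r (1.11-fold) were among the higher and Mrc1 (0.781-fold) among the lower. After the GC and length trend was removed, the log2 fold changes of Csf1r (0.25 in place of 0.15) and Mrc1 (-0.64 in place of -0.36) were further from 0.

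Of 10 dendritic cell markers, 6 were tested. With EC359, 2 were called higher and 0 lower (median log2 fold change 0.32), against 12.7% and 13.9% of all tested genes. With diet, 1 was called higher (Itgax) and 3 lower (median -0.47), against 26.0% and 25.8% of all tested genes. The 3 lower were Itgae, Ccr7 (0.400-fold), and Flt3 (0.527-fold). The summed level, of which Itgax made the largest part, was 69.5 to 71.9 CPM in LFD, 71.2 to 76.0 CPM in HFD, and 90.3 to 94.0 CPM in HFD + EC359. Itgax, which encodes CD11c and is shared with macrophages, was 1.34-fold higher in HFD + EC359 than in HFD (edgeR adjusted p = 1.32e-05). Itgae, which encodes CD103 and is also made by T cells, was 2.30-fold higher (edgeR adjusted p = 0.000223), and 0.337-fold in HFD compared to LFD (edgeR adjusted p = 2.82e-06). Zbtb46, a transcription factor of conventional dendritic cells, gave 0.981-fold (CI 0.839 to 1.15) and 0.992-fold (CI 0.836 to 1.18) in these comparisons. Xcr1 and Clec9a, which mark type 1 conventional dendritic cells, had at most 7 and 9 counts in a library.

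B cell markers were near the limit of detection, with 0 of 8 tested and a summed level of at most 2.82 CPM in any library, and Fcer2a was at 0 in all 9. Cd207, the defining gene of Langerhans cells, had 1 to 4 counts per LFD library, 1 to 2 per HFD library, and 7 to 15 per HFD + EC359 library, and was not tested. Cd4, the coreceptor of the T cells that recognize class II molecules, was 1.72-fold higher in HFD + EC359 than in HFD (edgeR adjusted p = 0.00229), and 0.664-fold in HFD compared to LFD (edgeR adjusted p = 0.0221, lost in DESeq2 and without LFD replicate 3 or HFD replicate 2). Compared to LFD, Cd4 in HFD + EC359 was 1.14-fold and not called. The summed level of 7 T cell markers was at most 22.0 CPM, and 4 of them were tested. In HFD + EC359 compared to HFD, Cd4 alone was called higher and 0 were called lower (12.7% and 13.9% of all tested genes). Cd3e gave 1.49-fold (CI 0.963 to 2.31) and Lck 0.988-fold (CI 0.708 to 1.38) in that comparison. With diet, 0 of the 4 were called higher and Cd4 alone lower (26.0% and 25.8% of all tested genes).

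Of 6 genes of all leukocytes, 4 were called higher in HFD + EC359 compared to HFD (12.7% of all tested genes), with a median log2 fold change of 0.20. Among these 4 was Ptprc, which encodes CD45 (1.20-fold, edgeR adjusted p = 0.00025). The call of Laptm5 (1.09-fold) among them was lost in DESeq2 and when any library of this comparison was left out, apart from replicate 2 of HFD and replicate 1 of HFD + EC359 (lowest log2 fold change 0.09 in place of 0.13, without replicate 1 of HFD). With diet, 4 of the 6 were called higher and 1, Coro1a (0.709-fold), lower (26.0% and 25.8% of all tested genes). Laptm5 was among the 4 (1.09-fold), and this call was lost in DESeq2 and without replicate 2 or 3 of LFD or of HFD. The median log2 fold change of the 6 was 0.46, against 0.29 for the members. Ptprc was 1.65-fold higher in HFD than in LFD (edgeR adjusted p = 1.98e-11), with a log2 fold change of 0.39 in place of 0.72 once the GC and length trend was removed. Of 6 neutrophil markers, 4 were called higher in HFD + EC359 compared to HFD (12.7% of all tested genes). Among them were S100a8 (1.63-fold), S100a9 (1.27-fold, with a log2 fold change of 0.20 in place of 0.34 after trend removal), and Csf3r (1.15-fold). The call of Csf3r was lost in DESeq2 and when replicate 1 or 2 of either group was left out. With diet, 2 of the 6 neutrophil markers were called higher (26.0% of all tested genes), namely S100a8 (1.91-fold) and Csf3r (1.18-fold), the latter not without HFD replicate 3. The part of these marker differences in the class II values was not tested.

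Ratios within a library were taken to set the class II genes beside these markers, and were chosen after the values were seen. The summed members were 0.224 to 0.236 of the summed macrophage markers in LFD, 0.269 to 0.277 in HFD, and 0.379 to 0.387 in HFD + EC359, without overlap. The mean ratio was thus 1.40-fold higher in HFD + EC359 than in HFD and 1.18-fold higher in HFD than in LFD (exact permutation p = 0.1 for each, the smallest that 3 libraries against 3 allow). To the summed genes of all leukocytes the ratio was 1.41 to 1.45 in LFD, 1.51 to 1.60 in HFD, and 2.37 to 2.42 in HFD + EC359, so that EC359 gave a 1.54-fold and diet a 1.09-fold difference.

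Without removal of the GC and length trend, single genes gave a common direction for EC359 and a divided one for diet. The ratio of Cd74 to Csf1r was 1.39-fold higher in HFD + EC359 than in HFD, that to Ptprc 1.39-fold, and that to Itgax 1.24-fold, and in all 3 the libraries of the groups did not overlap. In HFD compared to LFD, Cd74 per Csf1r was 1.10-fold higher, whereas Cd74 per Itgax was 0.926-fold and Cd74 per Ptprc 0.732-fold, again without overlap, though for Itgax the nearest libraries (9.10 in HFD and 9.12 in LFD) almost met. Cd74 per Ptprc was at 4.70 to 5.79 in LFD and 5.20 to 5.41 in HFD + EC359, which overlapped. After the GC and length trend was removed, the log2 fold change of Cd74 in HFD compared to LFD was 0.49 in place of 0.29. It then exceeded those of Csf1r (0.25), Itgax (0.43), and Ptprc (0.39), which without this step were 0.15, 0.405, and 0.72. The divided direction by diet thus depended on this step, with which the ratios themselves were not computed.

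**Figure D4:**
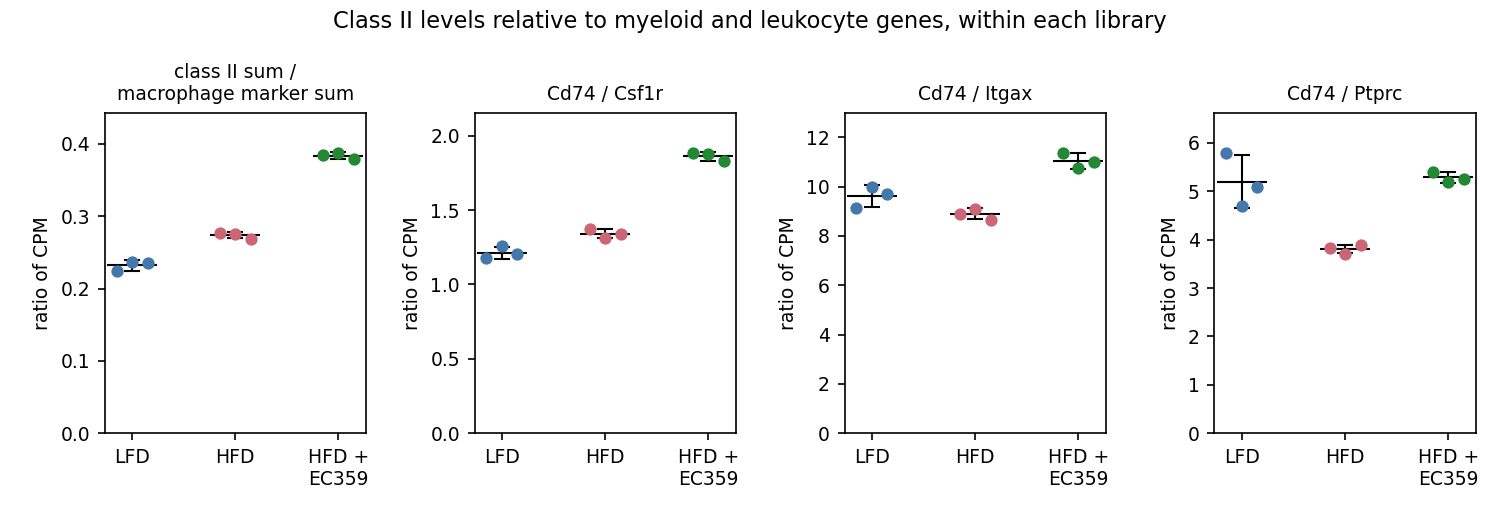
Ratios of CPM within each library (y axes, from 0) by group (x axes): the summed members to the summed macrophage markers, and Cd74 to Csf1r, Itgax, and Ptprc. Points are libraries, bars and whiskers the mean and SD (n = 3). All 4 ratios are higher in HFD + EC359 than in HFD, and Cd74 per Ptprc is lowest in HFD. The GC and length trend was not removed from these values.

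Over the 9 libraries, Pearson's r between the log2 CPM of 2 members ran from 0.814 (Ciita and H2-DMa) to 0.993 (H2-Eb1 and Cd74) in the 21 pairs; these points share the libraries and the 3 groups, so r mostly follows the group means. Among 10417 genes with a mean log2 CPM of at least 3, the 5 with the pattern most like the members' mean were Lilrb3 (r = 0.990), Tle2 (r = 0.989), Mdn1 (r = 0.988), Mudeng (r = 0.986), and C1qc (r = 0.985). Of these 5, only C1qc, a chain of complement C1q made by macrophages, is on a marker list used here. Lilrb3 encodes an inhibitory receptor of myeloid cells. Lilrb3 was at 30.8 ± 0.62 CPM in LFD, 38.0 ± 0.68 CPM in HFD, and 57.6 ± 3.85 CPM in HFD + EC359 (SD, n = 3), and C1qc at 134.8 ± 1.77, 156.0 ± 3.33, and 218.2 ± 8.74 CPM. In the same order of groups, Tle2 was at 121.7 ± 2.77, 136.2 ± 2.57, and 194.4 ± 1.90 CPM. Mdn1 was at 383.0 ± 2.75, 396.7 ± 5.96, and 457.5 ± 5.89 CPM, and Mudeng at 11.26 ± 0.74, 14.22 ± 0.30, and 20.68 ± 0.14 CPM.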

How the data were processed

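RNA-seq libraries were made from total RNA with a stranded mRNA kit and sequenced as paired-end reads. The authors deposited expected counts per gene, which the file headers credit to featureCounts 1.5.0-p1 (mm9, reverse strand, minimum mapping quality 2, multiple matches split into fractions). The submitters' processing notes name HISAT2 2.1.0, whereas the methods name TopHat2 and HTSeq. Counts were rounded to whole numbers. In R 4.3.3, genes were filtered with filterByExpr by group, scaled with TMM factors, and tested in a quasi-likelihood model of the 3 groups in edgeR 4.0.16, with Benjamini-Hochberg adjustment over 13366 genes, and called at an adjusted p under 0.05. CPM used TMM-scaled library totals, except for the counting error of a count of 0. Intervals (95%) follow from the fit, and the steps were tested on simulated data. Ratios were compared by 2-sided exact permutation tests.

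Named genes were taken from the members, the other class II chains, the 3 most abundant genes of each list, called genes of 3 pathway lists (up to 5 by adjusted p), and the 5 nearest patterns. Not all of these genes are printed, and the list of adipocyte markers is not described. Ccr7, Flt3, Xcr1, Clec9a, Cd40, Cd207, Fcer2a, Ifng, Krt7, and Krt19 were added after their values were seen. The interferon-γ list is shown in part, since 1 result is not reported here. The members and lists were chosen with earlier results of these data known. Alternatives were DESeq2 1.42.0, RLE factors, library totals, 2 other filters, the threshold of the methods, the 6 libraries of a comparison, a replicate block, removal of the GC and length trend (GC of 22549 genes from mm9), and each library left out.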

Additional observations from a re-analysis of the deposited data

How the results depend on the processing

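In HFD + EC359 compared to HFD, 7 of 7 members stayed called higher with every alternative at an adjusted p under 0.05 (DESeq2, RLE factors, library totals, both filters, 6 libraries, removal of the GC and length trend, each library left out). With the threshold of the methods the members called higher were 0 in HFD compared to LFD, 1 in HFD + EC359 compared to HFD, and 4 in HFD + EC359 compared to LFD, since few differences exceed 2-fold. In HFD compared to LFD, leaving out a library gave 4 to 5 called members, and removal of the GC and length trend gave 6. The sign of the log2 fold change in HFD compared to LFD turned for Ciita when HFD replicate 3 was left out (-0.02 to 0.044 over the libraries left out), and after GC and length trend removal for Nfyb (-0.049 in place of 0.287) and Ctsd (0.022 in place of -0.128). Correlations of deviations between same-numbered libraries were -0.03 to 0.02, so replicate numbers do not pair the libraries; with the replicate block 5, 7, and 7 members were called in the 3 comparisons. Of the 126 pairs of member and alternative in each comparison, 117, 120, and 123 kept direction and call. Depth limits Ifng, H2-Oa, H2-Ob, H2-Eb2, Cd207, and the B cell markers, which were too low to be tested.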
